A study of Rattus norvegicus with 9 samples.

Results

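Matrix genes were followed across 3 sorted populations of rat oligodendrocyte progenitor cultures. They comprised collagens, the enzymes that modify and cross-link collagen, laminins, fibronectin, fibrillins, fibulins, SPARC proteins, matrilins, and the proteases and inhibitors that turn matrix over. Members were all genes whose symbol begins with Col, a number and a chain, or with Plod, Lox, P4ha, a laminin chain, Sparc, Timp, Mmp, Adamts, Fbln, Fbn or Matn, together with Fn1, Emid1 and Serpinh1. This gave 89 genes on 123 probes, of 12167 genes that a probe with 1 symbol measured and 35129 probes in all. The group was singled out because Plod1 and Lox were low in 1 population, NG2/A2B5. Their differences from that population are therefore given as description, with no test, and no numeric threshold was attached to the choice. Another 5 probes carry several symbols, 1 of them a matrix symbol, and were left out.

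The cells came from newborn rats and all 9 samples were oligodendrocyte progenitor cells, per the labels, with no genetic change or treatment named. O4 cells carried the O4 antigen and lacked NG2, NG2/A2B5 cells carried the A2B5 antigen together with NG2, and NG2 cells carried, of these markers, NG2 alone. For each population 3 arrays of 1 colour, which the titles number I to III, were made from total RNA that was amplified by repeated in vitro transcription with spiked control RNAs. The series text speaks of 3 cultures but the labels do not tie a numeral to a culture, so the p-values measure only the spread between these arrays, which may be technical.

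Collagen chains are hydroxylated on proline and lysine in the endoplasmic reticulum, folded with the help of a dedicated chaperone, secreted, trimmed and then cross-linked outside the cell by lysyl oxidases. Laminins and network-forming collagens build basement membranes, fibrillins build microfibrils, and metalloproteinases and their tissue inhibitors set how fast the matrix is turned over. Oligodendrocyte progenitors meet laminin on vessels and axons, and laminin receptors are known to act in their survival and differentiation.

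Values are log2 of the deposited scaled intensity of a gene's brightest probe, so 1 unit is a doubling and values of different probes do not rank genes. A gene was near background when it lay under the 25th percentile of all probes on at least 5 of the 9 arrays. That percentile lay between -2.29 and -1.97 on the log2 scale. By this rule 26 of the 89 members (29.2%) were near background, against 2089 of all 12167 genes (17.2%). The near-background members were 2 lysyl oxidases, 6 collagens, 3 laminins, 2 fibulins, 2 matrilins, 7 metalloproteinases, 3 ADAMTS genes and Timp3. The other 63 members are called above background here. Among them Col4a3, Col4a4, Col8a2, Lamb2 and Mmp23 still lay under the percentile on 4 arrays. Array medians lay between 1.051 and 1.067 intensity units. Markers of other cell types were read by list, and sums over different probes do not rank cell types. Of 10 oligodendrocyte lineage genes 0 were near background, with summed intensity between 532 and 828 on single arrays. Of 7 astrocyte genes 0 were near background, with sums between 65.3 and 160. Of 10 fibroblast genes 7 were near background, with sums between 7.78 and 12.6. Of 10 microglial genes 6 were near background, with sums between 1.87 and 3.24. For endothelium it was 3 of 8 genes, with sums between 6.75 and 10.5, and for pericytes and smooth muscle 3 of 7, with sums between 25.8 and 41.5. In RNA from sorted cells in bulk, fewer cells of a type and less RNA per cell cannot be told apart.

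Between populations, 0 of the 89 members passed limma's test at an adjusted p under 0.05 in any pairwise contrast. The share of all 12165 genes tested that passed was 0.00822% in O4 minus NG2, 0.00822% in O4 minus NG2/A2B5 and 0% in NG2/A2B5 minus NG2. Among the 63 members above background, Emid1, low in NG2, had the largest differences of means apart from Plod1 and Lox. Plod1 and Lox were the reason for the choice of this group, so their low level in NG2/A2B5 is not a result of it. The chains of collagen, laminin and fibronectin, the proteases and their inhibitors mostly overlapped between populations.

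The 3 lysyl hydroxylases hydroxylate lysine in collagen, which sets the type of cross-link that can form. All 3 were read above background. On arrays I, II and III, Plod1 read 1.46, 1.55 and 2.31 in O4, 0.76, -0.13 and 0.44 in NG2/A2B5, and 2.39, 2.15 and 2.70 in NG2. All 3 NG2/A2B5 arrays lay below the other 6, while O4 and NG2 overlapped. The means were 1.77 ± 0.47 in O4 cells, 0.36 ± 0.45 in NG2/A2B5 cells and 2.41 ± 0.28 in NG2 cells (SD, n = 3 each). Plod1 lay 1.42 higher in O4 than in NG2/A2B5, and NG2/A2B5 minus NG2 was -2.06. The remaining contrast, which the choice of genes did not use, was -0.64 for O4 minus NG2 (SE 0.31, 95% interval -1.37 to 0.09, limma adjusted p = 0.665).

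Plod2, which hydroxylates the ends of the collagen chain, did not show that pattern. It read 3.93, 3.33 and 3.76 in O4, 3.70, 3.74 and 3.82 in NG2/A2B5, and 4.06, 3.88 and 4.10 in NG2. The NG2/A2B5 arrays lay below all NG2 arrays but inside the O4 range, with a difference from NG2 of -0.26 (SE 0.18, interval -0.68 to 0.16). Plod3, which also adds sugars to hydroxylysine, read 5.32, 5.21 and 5.14 in O4, 4.81, 5.18 and 5.16 in NG2/A2B5, and 4.80, 4.85 and 5.08 in NG2. All O4 arrays were above all NG2 arrays, by 0.31 on average (SE 0.16, interval -0.06 to 0.69, limma adjusted p = 0.67), which does not pass the test.

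Prolyl hydroxylation stabilises the collagen triple helix, and P4ha1 and P4ha2 are catalytic subunits of the enzyme. P4ha1 read 1.83, 1.92 and 1.53 in O4, 1.70, 2.38 and 1.93 in NG2/A2B5, and 2.29, 2.39 and 1.70 in NG2. P4ha2 read 1.05, 1.11 and 0.40 in O4, 1.01, 1.10 and 0.77 in NG2/A2B5, and 1.19, 0.99 and 0.81 in NG2. The populations overlapped for both genes, with O4 minus NG2 at -0.36 (interval -0.96 to 0.23) for P4ha1 and -0.14 (interval -0.67 to 0.38) for P4ha2. P4ha3 was not analysed here.

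Serpinh1 encodes the chaperone that binds procollagen in the endoplasmic reticulum. It read -0.78, -0.94 and -1.01 in O4, -1.70, -1.91 and -1.10 in NG2/A2B5, and -1.55, -0.79 and -1.44 in NG2. The O4 arrays sat above all NG2/A2B5 arrays and overlapped with NG2. O4 minus NG2/A2B5 was 0.66 (SE 0.27, interval 0.02 to 1.29), with a limma adjusted p that rounds to 1.0. Its other probe was near background and had a difference of -0.72 (SE 1.05).

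Lysyl oxidases start the cross-links between collagen or elastin chains. Lox read -2.54, 0.67 and -1.41 in O4, -3.38, -1.20 and -2.75 in NG2/A2B5, and -0.84, 0.74 and 0.77 in NG2. The NG2/A2B5 arrays were below all NG2 arrays, but the O4 arrays spread over 3.21 log2 units and overlapped both. Arrays I and III of NG2/A2B5 and array I of O4 lay under the 25th percentile of their array, so these readings have little resolution. The mean was -1.09 ± 1.63 in O4 cells, -2.44 ± 1.12 in NG2/A2B5 cells and 0.22 ± 0.92 in NG2 cells (SD, n = 3 each). NG2/A2B5 minus NG2 was -2.67 and O4 minus NG2/A2B5 was 1.35, as description. O4 minus NG2 was -1.32 (SE 0.91, interval -3.43 to 0.79, limma adjusted p = 0.754).

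Among the other lysyl oxidases Loxl2 had its means in the same order, -1.07 in NG2/A2B5, -0.86 in O4 and -0.42 in NG2, and Loxl3 and Loxl4 did not. Loxl2 read -0.59, -0.88 and -1.10 in O4, -0.26, -1.26 and -1.70 in NG2/A2B5, and -0.10, -0.56 and -0.60 in NG2, with overlapping arrays and NG2/A2B5 minus NG2 at -0.65 (SE 0.36, interval -1.50 to 0.19). Loxl3 averaged 3.96, 3.99 and 4.12 in O4, NG2/A2B5 and NG2, with the populations overlapping. Loxl1 and Loxl4 were near background: Loxl1 read -2.49, -2.94 and -2.04 in O4, -4.14 and -2.0 on NG2/A2B5 arrays II and III, and -2.52, -2.33 and -2.96 in NG2, and was at the floor on NG2/A2B5 array I, where its intensity was at or below 0. Loxl4 read -2.72, -1.19 and -2.63 in O4, -3.05, -2.58 and -3.60 in NG2/A2B5, and -2.43, -3.68 and -5.24 in NG2. Its O4 minus NG2 difference of 1.61 (SE 0.73, limma adjusted p = 0.642) rests on values under the background limit.

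**Figure D1:**
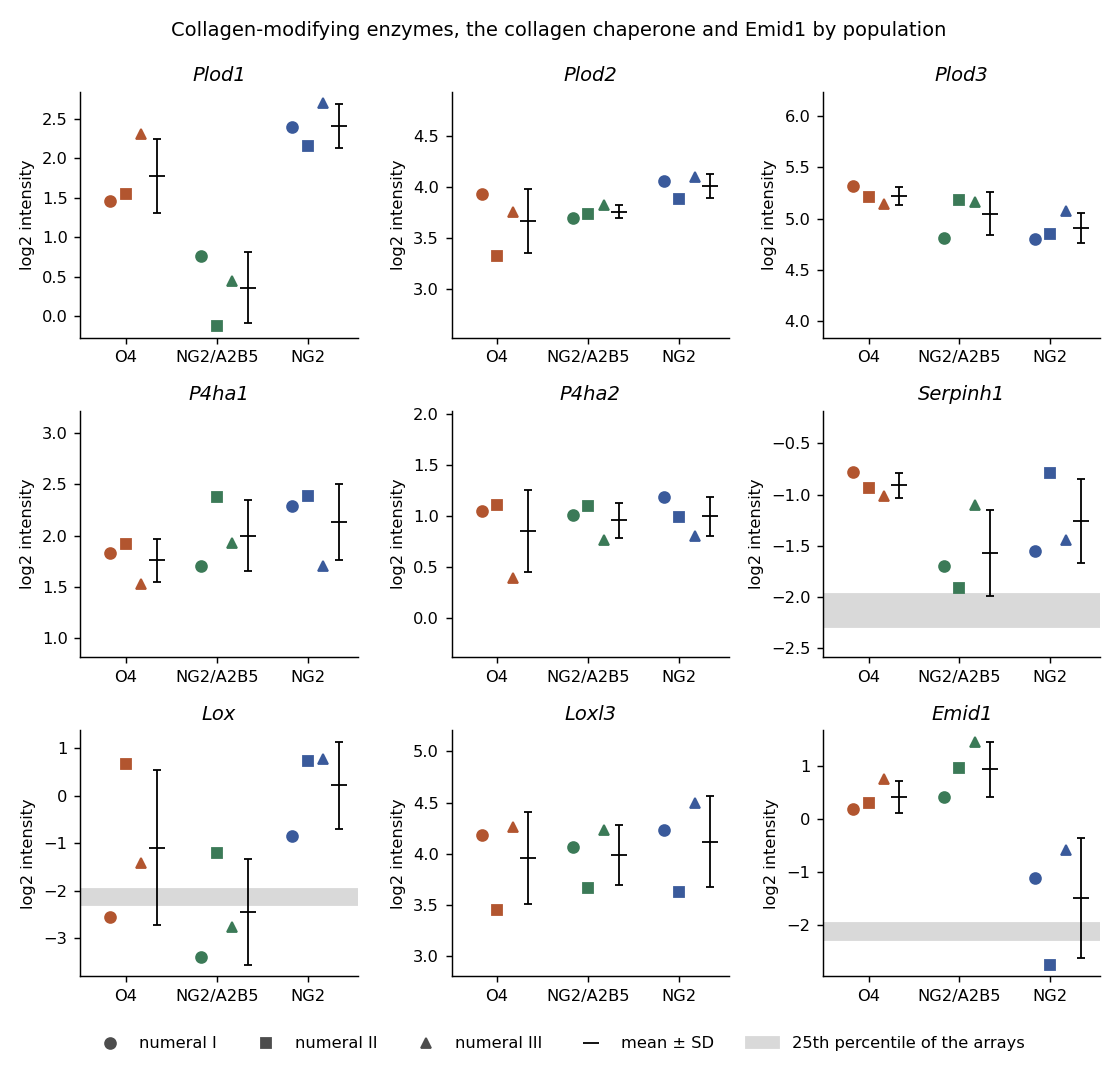
Log2 intensity of Plod1, Plod2, Plod3, P4ha1, P4ha2, Serpinh1, Lox, Loxl3 and Emid1 on each of the 9 arrays, grouped by population, with the marker shape giving the numeral and the bar the mean ± SD of 3 arrays; the grey band spans the arrays' 25th percentiles. Plod1 sits between -0.13 and 0.76 on all 3 NG2/A2B5 arrays and between 1.46 and 2.70 on the other 6, while Plod2 and Plod3 sit in narrow ranges in every population.

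Emid1 encodes a secreted protein with an EMI domain and collagen-like repeats. It read 0.19, 0.30 and 0.76 in O4, 0.42, 0.97 and 1.46 in NG2/A2B5, and -1.11, -2.76 and -0.59 in NG2. All 3 NG2 arrays lay below the other 6, and array II of NG2 lay under the background limit. O4 minus NG2 was 1.91 (SE 0.54, interval 0.65 to 3.17), the smallest p among the members in this contrast, but limma's adjusted p over all genes was 0.566. NG2/A2B5 minus NG2 was 2.44 (SE 0.54, interval 1.18 to 3.70, limma adjusted p = 0.862). The other probe of Emid1 was near background, and at the floor on NG2/A2B5 array III, so it could not serve as a check. Its differences in these contrasts were 0.72 (SE 2.05) and -3.31 (SE 2.05). With the mean of both probes NG2/A2B5 minus NG2 turned to -0.44, and without NG2 array II O4 minus NG2 was 1.27.

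Among fibril-forming collagens, all 9 genes were above background. Col1a1, a chain of type I collagen, read 2.66, 2.97 and 2.30 in O4, 3.01, 3.47 and 3.31 in NG2/A2B5, and 3.08, 4.05 and 3.15 in NG2. The O4 arrays lay below all others. O4 minus NG2 was -0.78 (SE 0.30, interval -1.49 to -0.08, limma adjusted p = 0.601) and O4 minus NG2/A2B5 was -0.62 (SE 0.30, interval -1.32 to 0.09). Its partner chain Col1a2 did not show the same order: it averaged 4.04 ± 0.17 in O4 cells, 3.92 ± 0.13 in NG2/A2B5 cells and 3.81 ± 0.13 in NG2 cells (SD, n = 3 each). The second probe of Col1a1 was near background.

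Col4a1, a chain of the basement membrane network, had a mean of 4.77. It read 5.31, 4.83 and 4.49 in O4, 5.15, 4.85 and 4.63 in NG2/A2B5, and 4.62, 4.84 and 4.23 in NG2, with all populations overlapping. Col4a5 was near background. It read -2.12 on O4 array I and sat at the floor on O4 arrays II and III, and it read -3.12, -3.60 and -2.38 in NG2/A2B5 and -5.87, -2.20 and -5.61 in NG2, so its O4 minus NG2/A2B5 difference of -4.98 (SE 2.30) comes from 2 values without signal. Col4a2 was not analysed here. Col12a1, a collagen that decorates fibrils, read -0.29, -0.91 and -0.65 in O4, -0.33, -0.08 and -0.55 in NG2/A2B5, and -0.83, -0.75 and -0.88 in NG2. NG2/A2B5 lay above NG2 on every array, by 0.50 on average (SE 0.20, interval 0.03 to 0.96). Col8a1 and Col23a1 were near background. Col8a1 read -3.01, -2.57 and -2.68 in O4, -2.25, -3.19 and -2.43 in NG2/A2B5, and -4.03, -2.93 and -3.55 in NG2, with NG2/A2B5 minus NG2 at 0.88 (SE 0.34). Col23a1 read -2.38, -4.35 and -8.64 in O4, -4.92, -2.50 and -2.31 in NG2/A2B5, and -1.99, -2.49 and -0.49 in NG2, with O4 minus NG2 at -3.47 (SE 1.53). The adjusted p of Col12a1, Col8a1 and Col4a5 in these contrasts rounded to 1.0, and that of Col23a1 was 0.631 (limma).

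Of the 8 laminin chains 5 were above background by the rule used here, though Lamb2, counted among them, averaged only -2.45. Lamc1, the gamma chain of most laminins, read 5.76, 5.89 and 6.16 in O4, 5.56, 5.88 and 5.59 in NG2/A2B5, and 5.96, 6.48 and 6.37 in NG2. NG2/A2B5 was below NG2 on every array and overlapped with O4. The NG2/A2B5 minus NG2 difference was -0.60 (SE 0.20, interval -1.05 to -0.14, limma adjusted p = 0.969). Lama4, an alpha chain found in vessel and nerve basement membranes, read 6.03, 6.15 and 6.15 in O4, 5.89, 6.36 and 6.29 in NG2/A2B5, and 6.19, 6.43 and 6.48 in NG2. Its O4 arrays lay just under the NG2 arrays, by 0.26 on average, and its second bright probe gave -0.57 (SE 0.18) for O4 minus NG2.

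Fn1, fibronectin, read 0.73, 0.30 and -0.34 in O4, 0.78, 0.13 and 0.15 in NG2/A2B5, and 0.50, 0.77 and -0.15 in NG2. Sparc, a collagen-binding matricellular protein, read 3.40, 2.32 and 2.70 in O4, 3.27, 2.77 and 3.24 in NG2/A2B5, and 3.03, 1.79 and 2.49 in NG2. In both genes the arrays of every population overlapped, and array I was the highest in the O4 and NG2/A2B5 populations. Both of Sparc's probes were above background and had the same sign in all 3 population contrasts.

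Metalloproteinases cleave matrix and cell-surface proteins. Mmp15, a membrane-type member, read 7.02, 6.97 and 6.83 in O4, 6.81, 7.15 and 6.92 in NG2/A2B5, and 6.68, 7.37 and 6.86 in NG2. Its populations overlapped, and its population means lay between 6.94 and 6.97. Mmp13, a collagenase, read 3.14, 3.27 and 3.01 in O4, 3.19, 2.63 and 3.06 in NG2/A2B5, and 2.73 on each NG2 array. O4 was above NG2 throughout, by 0.41 (SE 0.18, interval 0.00 to 0.81, limma adjusted p = 0.625). Mmp9 was near background and at the floor on O4 array I. It read -1.52 and -6.59 on O4 arrays II and III, -2.77, -2.94 and -2.24 in NG2/A2B5, and -2.93, -2.79 and -1.88 in NG2, so its O4 minus NG2/A2B5 difference of -3.95 (SE 2.13) rests on readings with little resolution.

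ADAMTS proteases cut proteoglycans and procollagens. Adamts10 read 1.17, 0.74 and 0.74 in O4, 1.0, 1.61 and 1.15 in NG2/A2B5, and 1.10, 1.36 and 1.83 in NG2, with O4 minus NG2 at -0.55 (SE 0.25, interval -1.13 to 0.04, limma adjusted p = 0.645). Adamts15 was near background and read -2.84, -2.13 and -1.77 in O4, -3.65, -2.28 and -3.09 in NG2/A2B5, and -2.02, -1.82 and -2.92 in NG2. Its O4 minus NG2/A2B5 difference was 0.76 (SE 0.45). Among tissue inhibitors of metalloproteinases the means of Timp1 were 4.71, 4.71 and 4.59 in O4, NG2/A2B5 and NG2, and those of Timp2 were 3.57, 3.75 and 3.73. Timp4 averaged 2.83, 3.11 and 2.69 and Timp3 was near background, at -3.59, -2.78 and -2.30 in O4, -2.98, -3.18 and -1.61 in NG2/A2B5, and -2.09, -3.51 and -2.41 in NG2.

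In O4 minus NG2, where limma called 0 members, 3 had an unadjusted p under 0.05, against 973 of all genes (8%). In that contrast 48 members were higher and 41 lower in O4, with a median of 0.04 against 0.02 over all genes, and 7 members (7.87%) had arrays that did not overlap, against 14% of all genes. In O4 minus NG2/A2B5, 0 members passed (0.00822% of all genes), 2 had an unadjusted p under 0.05 (all genes 3.28%), and 5 did not overlap (all genes 8.78%). In NG2/A2B5 minus NG2, 0 members passed (0% of all genes), 6 had an unadjusted p under 0.05 (all genes 4.48%), and 10 did not overlap (all genes 10.3%). The medians were -0.02 (all genes 0.02) and -0.01 (all genes -0.01). The last 2 contrasts include Plod1 and Lox, so nothing is read from their counts. Limma's F test over the 3 populations called 0 members and 0.00822% of all genes, with 3 members and 5.38% of all genes at an unadjusted p under 0.05. Each pair of contrasts shares 1 population's arrays, so they are not independent. In simulated data of this size, 20 of 100 genes changed by 1 log2 unit and 55 of 100 changed by 2 units were recovered in O4 minus NG2, with 7 false calls. In III minus II it was 3 of 100 and 33 of 100, also with 7 false calls. The simulated spread was taken around the population means, so it held the variation between numerals as noise. The recovery in III minus II therefore does not give the power of the real contrast, whose model sets that variation apart.

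**Figure D2:**
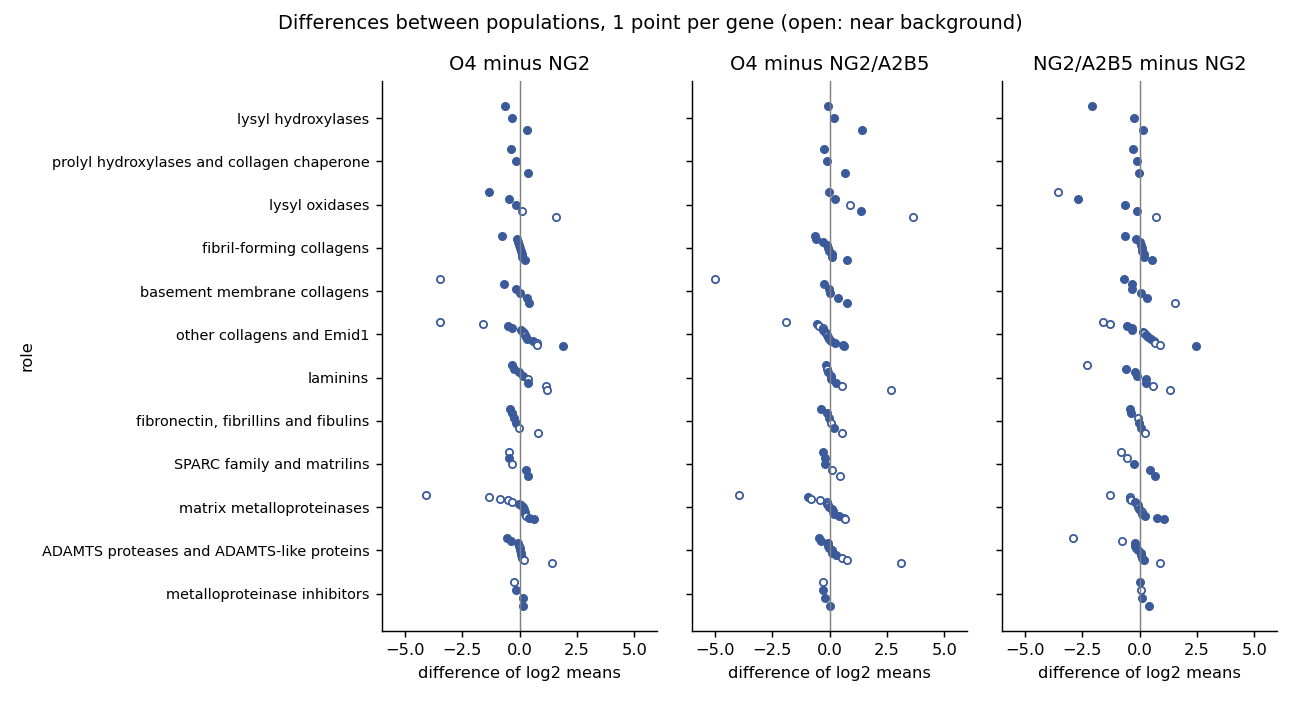
Difference of mean log2 intensity for each of the 89 genes, 1 point per gene, in rows by role, for O4 minus NG2, O4 minus NG2/A2B5 and NG2/A2B5 minus NG2; open points are near background. Most filled points lie close to 0, Emid1 lies at 1.91 and 2.44 in the contrasts with NG2, and Plod1 and Lox lie at -2.06 and -2.67 in NG2/A2B5 minus NG2.

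The numerals divide the 9 arrays in another way, since each of I, II and III occurs once in every population. For each gene the sum of squares was split into a population, a numeral and a remaining part, which hold 25%, 25% and 50% of the degrees of freedom. Across the 63 members above background the median shares were 22.1% for population, 43.7% for numeral and 26.1% for the rest. Over all 9952 genes above background with a value on every array the medians were 20.8%, 38.3% and 30.2%. The numeral share was the larger of the first 2 in 43 of the 63 members, and in 6314 of the 9952 genes. Near background the 26 members had medians of 21.2%, 25.1% and 50.8%, close to the shares of the degrees of freedom. Population held 75% for Emid1 and 64.5% for Lamc1, and, as description of the enzymes chosen for this pattern, 86.9% for Plod1 and 52.9% for Lox. The numeral held 94.5% for Fbn2, 91.5% for Loxl3, 89.7% for Timp1 and 89.2% for Adamts1.

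**Figure D3:**
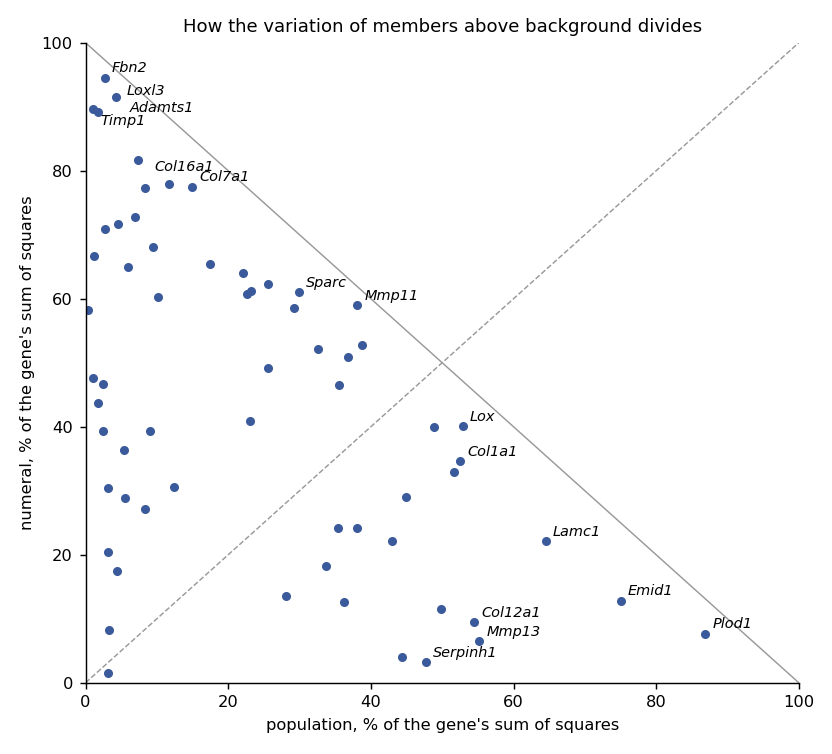
Share of each gene's sum of squares that goes to population (x axis, %) and to numeral (y axis, %), 1 point for each of the 63 members above background; the dashed line marks equal shares and the solid line the full sum. Above the dashed line lie 43 points, with Fbn2 at 94.5% for numeral, and Plod1 is farthest to the right at 86.9% for population.

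Between numerals, with population in the model, 7 of the 89 members (7.87%) passed limma's test in III minus II, where 3.55% of all genes passed. Of these members 2 were higher on III (1.64% of all genes) and 5 were lower (1.92%). Lower on the arrays numbered III were the microfibril gene Fbn2, the protease genes Mmp11 and Adamts1, the inhibitor Timp1 and the anchoring-fibril collagen Col7a1. Loxl3, a lysyl oxidase, and Col16a1, a collagen associated with fibrils, were higher. The differences were between 1.68-fold (Loxl3) and 4.20-fold (Fbn2). All 7 were above background, where 11.1% of members and 4.22% of all genes passed. The members' median was -0.19 against -0.08 over all genes, with 37 genes higher and 52 lower. The arrays of III and II did not overlap for 24 members (27%), against 26.6% of all genes, which is near the background share.

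Fbn2, which builds the microfibrils of developing tissue, read 2.94, 4.60 and 2.39 on arrays I, II and III in O4, 3.07, 4.83 and 3.11 in NG2/A2B5, and 2.80, 5.16 and 2.89 in NG2. Array II was the highest in every population, by at least 1.66. III minus II was -2.07 (SE 0.20, interval -2.56 to -1.58, limma adjusted p = 0.0225) and II minus I was 1.93 (SE 0.20, interval 1.44 to 2.42, limma adjusted p = 0.0454). A second Fbn2 probe, also above background, did not show this: it read 0.39, 0.54 and 0.37 on the II arrays and 0.37 to 1.08 on the others. Its III minus II difference was 0.50 (SE 0.17) and its II minus I difference was -0.12 (SE 0.17), so the probes of Fbn2 disagree in sign.

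Timp1, an inhibitor of most matrix metalloproteinases, read 4.73, 5.28 and 4.13 on arrays I, II and III in O4, 4.77, 5.23 and 4.13 in NG2/A2B5, and 4.20, 5.57 and 4.0 in NG2. Array II was the highest and array III the lowest in all 3 populations. The mean over the 3 populations fell from 5.36 ± 0.18 on II to 4.09 ± 0.08 on III (SD, n = 3 arrays each), a difference of -1.27 (SE 0.20, interval -1.77 to -0.77, limma adjusted p = 0.0439). Each SD is taken over 1 array of every population, so it is not a spread between replicates of a numeral. Adamts1, which cleaves the proteoglycans aggrecan and versican, read 4.0, 3.66 and 2.98 in O4, 3.56, 4.01 and 2.71 in NG2/A2B5, and 3.86, 4.18 and 2.74 in NG2. Every III array was below every I and II array. III minus II was -1.14 (SE 0.19, interval -1.63 to -0.66, limma adjusted p = 0.0477).

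Mmp11, a secreted metalloproteinase of the stromelysin group, read 3.17, 3.49 and 2.47 in O4, 3.14, 3.59 and 2.74 in NG2/A2B5, and 2.68, 2.81 and 1.74 in NG2. The III array was the lowest of each population, and the NG2 arrays were lower than the others at each numeral. III minus II was -0.98 (SE 0.14, interval -1.32 to -0.64, limma adjusted p = 0.0349), and its second probe, above background, gave -0.88 (SE 0.22). Col7a1, which forms anchoring fibrils under epithelia, read 0.60, 1.55 and 0.67 in O4, 0.09, 1.01 and -0.13 in NG2/A2B5, and 0.30, 1.77 and -0.13 in NG2. Array II was the highest in each population, and III minus II was -1.30 (SE 0.21, interval -1.83 to -0.77, limma adjusted p = 0.0448).

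Loxl3 and Col16a1 moved the other way. Loxl3 read 4.18, 3.45 and 4.26 in O4, 4.07, 3.67 and 4.23 in NG2/A2B5, and 4.23, 3.63 and 4.50 in NG2, so array II was the lowest in each population. III minus II was 0.75 (SE 0.12, interval 0.44 to 1.05, limma adjusted p = 0.0448), and its other probe was near background. Col16a1 read 2.99, 2.33 and 3.73 in O4, 2.86, 2.91 and 3.79 in NG2/A2B5, and 3.69, 2.60 and 4.27 in NG2. Array III was the highest in every population, and III minus II was 1.32 (SE 0.23, interval 0.75 to 1.88, limma adjusted p = 0.0482).

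**Figure D4:**
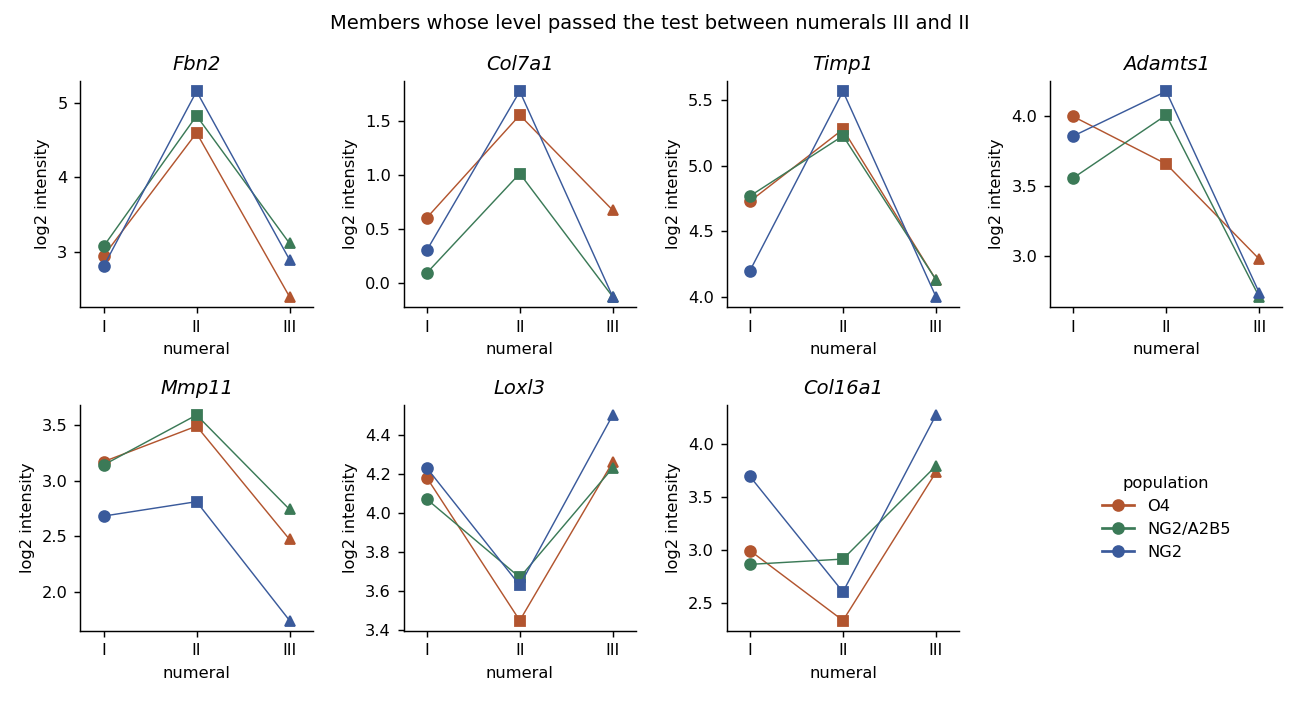
Log2 intensity of the 7 genes that passed the test in III minus II, by numeral (x axis) and population (colour); lines join the 3 arrays of a population and imply no order in time. The II arrays are the highest in all 3 populations for Fbn2, Col7a1, Timp1 and Mmp11, the lowest for Loxl3, and the III arrays are the highest for Col16a1.

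All 7 calls lie close to the threshold and none survived the loss of an array. In each of the 9 fits without 1 array, 0 members and at most 5 of all genes (0.0411%) passed in III minus II, so the loss was not limited to matrix genes. The members had an adjusted p between 0.059 and 0.121 for Fbn2 and between 0.0827 and 0.185 for Adamts1, and each of the 7 genes kept its sign in all 9 fits. The difference of Fbn2 stayed between -2.20 and -1.91 and that of Timp1 between -1.40 and -1.06. The members just outside the threshold were Col27a1 (1.10, limma adjusted p = 0.0736), Col18a1 (-1.07, 0.0797), Timp2 (0.59, 0.0888) and Adamts9 (-0.98, 0.0889), each given as III minus II and its adjusted p.

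Tissue inhibitors split by gene in III minus II. Timp2, which also takes part in activating a metalloproteinase, read 3.57, 3.26 and 3.88 in O4, 3.93, 3.42 and 3.90 in NG2/A2B5, and 4.05, 3.23 and 3.91 in NG2. Timp4 read 2.44, 2.61 and 3.45 in O4, 2.96, 2.82 and 3.56 in NG2/A2B5, and 2.67, 2.53 and 2.88 in NG2. Array III was above array II in every population for both, by 0.59 (SE 0.14) and 0.64 (SE 0.17), while Timp1 fell. Timp2 and Timp4 did not pass limma's test (adjusted p 0.0888 and 0.105).

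II minus I and III minus I held fewer calls. In II minus I, 1 member (1.12%), Fbn2, passed, against 0.23% of all genes, and without any 1 array its adjusted p lay between 0.13 and 0.21. Next by p were Lox at 2.32 (SE 0.42, limma adjusted p = 0.106), Col7a1 at 1.12 (0.111) and Sparc at -0.94 (0.116). Lox was higher on array II than on array I in each population, by 3.21 in O4 cells, 2.18 in NG2/A2B5 cells and 1.57 in NG2 cells, and its numeral share of the sum of squares was 40.1%. In III minus I, limma called 0 members and 0% of all genes, and 15 members (all genes 12.6%) had an unadjusted p under 0.05. The lowest adjusted p there was 0.242, for Adamts1 at -1.0 (SE 0.19). Limma's F test over the 3 numerals called 1 member, Fbn2 (adjusted p = 0.0355), and 0.674% of all genes.

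By role, the calls in III minus II were 1 of 5 lysyl oxidases, 2 of 14 collagens outside the fibril-forming and basement membrane groups, 1 of 6 fibronectin, fibrillin and fibulin genes, 1 of 15 metalloproteinases, 1 of 11 ADAMTS genes and 1 of 4 inhibitors. None was a lysyl or prolyl hydroxylase, a fibril-forming or basement membrane collagen, a laminin or a SPARC or matrilin gene. Of the 15 metalloproteinases 12 were lower on III than on II, as were 6918 of all 12165 genes, and 1 of them passed. Their median was -0.51 against -0.08 over all genes, but 7 of the 15 were near background.

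**Figure D5:**
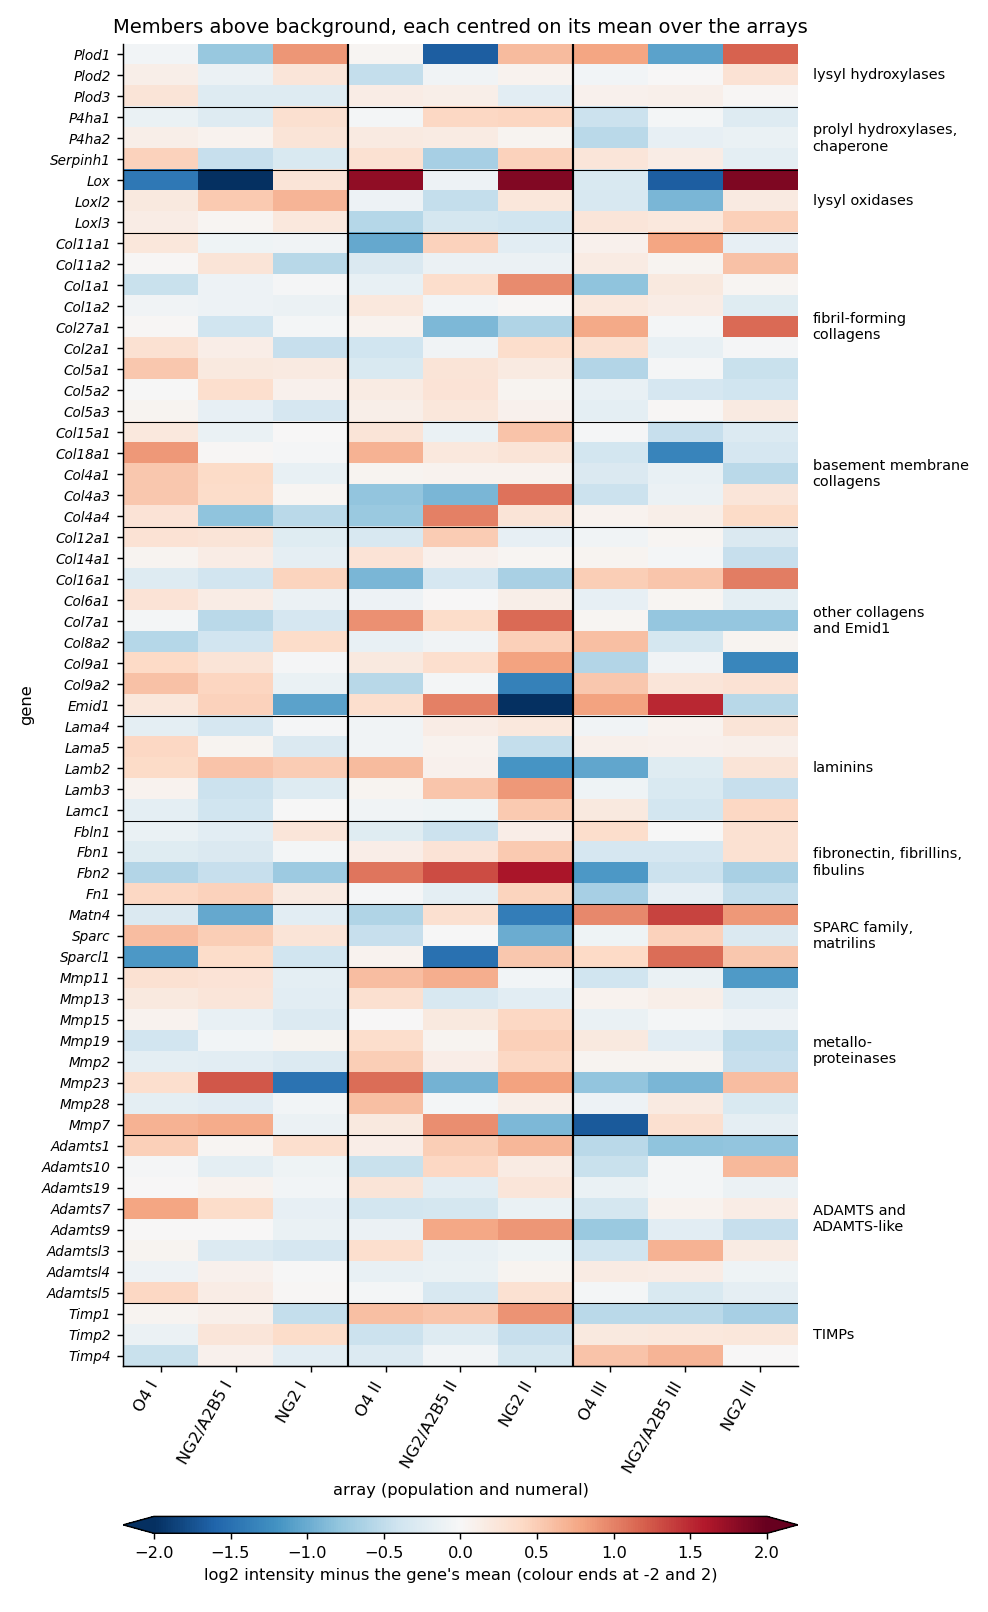
Log2 intensity of the 63 members above background on each array, each gene centred on its mean over the 9 arrays, with columns grouped by numeral and rows by role; colours end at -2 and 2. Fbn2, Timp1 and Col7a1 are above their means on all 3 II arrays, and Plod1 is below its mean on all 3 NG2/A2B5 arrays.

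Other markers also differed between the numerals. Of 7 astrocyte markers 2 were called higher in III minus II, as were 1.64% of all genes. Gfap rose by 1.72 (limma adjusted p = 0.024) and Aldoc by 1.27 (0.0284), both past the threshold in 0 of the 9 fits without 1 array. In the whole list 3 were higher and 4 lower on III, with a median of -0.26, while the summed astrocyte intensity was 112 to 160 on the III arrays and 65.3 to 101 on the II arrays. Gfap, the defining astrocyte filament, stayed low, with -3.15 to -2.42 on II and -1.51 to -0.75 on III. All 3 II readings lay under the background limit, so the size of its difference has little resolution. The 10 oligodendrocyte lineage markers summed to 706 to 828 on III and 532 to 586 on II, with 0 called (limma, lowest adjusted p 0.103). The fibroblast list summed to 11 to 12.6 on III and 7.78 to 9.94 on II, while 2 of its genes were higher and 8 lower on III (median -0.39, 0 called by limma, 3 at an unadjusted p under 0.05). Dcn was under the 25th percentile on 8 arrays and Lum on all 9. The endothelial list summed to 6.75 to 8.29 on III and 7.79 to 10.5 on II, with 1 gene higher and 7 lower (median -0.21, 0 called by limma, 1 at an unadjusted p under 0.05). Of all 12165 genes 3.55% were called and 2878 had an unadjusted p under 0.05 in III minus II. The part of these markers in the matrix results was not tested.

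Promoters are shown for 4 genes called between numerals, of which Timp1 and Adamts1 were lower and Loxl3 and Col16a1 higher on III than on II, and for Plod1, an enzyme for which the group was singled out. They are the 250 bases before the annotated start, from RefSeq on the rat build GRCr8, read 5′ to 3′ on the gene's strand. Capitals mark matches, on either strand, to the GC box GGGCGG, or to the TATA box TATAAA. Timp1 lies on chrX:3771123-3771372 (minus strand), Adamts1 on chr11:38427385-38427634 (minus), Loxl3 on chr4:117098108-117098357 (plus), Col16a1 on chr5:147672846-147673095 (plus) and Plod1 on chr5:163650738-163650987 (minus).
Timp1: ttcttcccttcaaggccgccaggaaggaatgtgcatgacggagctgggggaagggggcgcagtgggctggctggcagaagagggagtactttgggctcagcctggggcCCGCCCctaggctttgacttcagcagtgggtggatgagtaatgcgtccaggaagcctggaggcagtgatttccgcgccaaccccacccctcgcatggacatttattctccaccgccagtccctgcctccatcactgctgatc
Adamts1: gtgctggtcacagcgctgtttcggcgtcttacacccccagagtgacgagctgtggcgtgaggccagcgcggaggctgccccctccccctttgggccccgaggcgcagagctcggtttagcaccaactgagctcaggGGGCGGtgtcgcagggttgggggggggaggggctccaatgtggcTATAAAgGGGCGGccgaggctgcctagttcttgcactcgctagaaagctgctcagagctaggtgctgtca
Loxl3: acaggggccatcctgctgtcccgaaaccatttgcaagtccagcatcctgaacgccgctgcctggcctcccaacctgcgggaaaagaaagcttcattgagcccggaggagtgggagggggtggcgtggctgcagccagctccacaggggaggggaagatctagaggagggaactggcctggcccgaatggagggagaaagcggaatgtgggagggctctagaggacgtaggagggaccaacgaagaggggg
Col16a1: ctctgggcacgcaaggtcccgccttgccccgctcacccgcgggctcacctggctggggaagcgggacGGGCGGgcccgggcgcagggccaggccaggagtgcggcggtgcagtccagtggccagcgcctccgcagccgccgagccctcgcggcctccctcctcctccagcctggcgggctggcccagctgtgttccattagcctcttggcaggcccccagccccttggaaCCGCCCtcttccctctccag
Plod1: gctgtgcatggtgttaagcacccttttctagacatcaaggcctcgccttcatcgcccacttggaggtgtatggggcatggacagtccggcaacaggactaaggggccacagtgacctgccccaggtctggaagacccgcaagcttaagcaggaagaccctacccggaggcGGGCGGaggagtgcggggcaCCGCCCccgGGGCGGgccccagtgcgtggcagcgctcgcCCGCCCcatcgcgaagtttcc

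Counted from the start, the GC box began in Timp1 at -142, in Adamts1 at -114 and -63, in Col16a1 at -183 and -20, and in Plod1 at -80, -60, -51 and -21. Adamts1 also held a TATA box at -70, next to a GC box and not overlapping it. Loxl3 had no match to any of the 4 motifs searched. The others were the AP-1 site TGANTCA and the hypoxia element core ACGTG, and neither was found in these 5 windows. Of the 89 members 70 had a promoter entry. The GC box was in 40 of these (57.1%) against 30.5% of all 33469 windows of the same length, AP-1 in 10% against 6.34%, ACGTG in 12.9% against 16.6% and TATAAA in 17.1% against 12.9%. Members were counted by gene, while the 33469 windows were all promoter entries and were not limited to the measured genes. The shares thus come from unlike sets, and nothing is read from their difference. A match is a run of letters and not a measured site.

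Collagen pathway genes outside the selection held no call. Of 37 listed genes for procollagen processing, glycosylation, export and basement membrane assembly 25 were measured, and limma called 0 in each population and each numeral contrast, with between 1 and 6 at an unadjusted p under 0.05. Of all genes 0% to 3.55% were called in these contrasts. Between 399 (O4 minus NG2/A2B5) and 2878 (III minus II) of all 12165 genes had an unadjusted p under 0.05, so nothing particular to this list is read from its counts. In O4 minus NG2, 18 were higher and 7 lower, with a median of 0.16 against 0.02 over all genes. Smallest in p was Pcolce, an enhancer of procollagen trimming, at 0.74 (SE 0.21, limma adjusted p = 0.566). It ranged from 1.99 to 2.17 in O4 and from 1.13 to 1.67 in NG2. P3h2, a prolyl hydroxylase that acts on another proline position, read -2.21 to -1.56 in NG2 cells and -1.36 to -0.56 in the NG2/A2B5 population, a difference of 1.05 (SE 0.29, limma adjusted p = 0.969).

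Matrix receptors and growth factor inputs were measured for 23 of 26 listed genes, and limma called 0 between populations, with 1 or 2 at an unadjusted p under 0.05 in each contrast. Of all genes at most 0.00822% were called there, and 3.28% to 8% had an unadjusted p under 0.05. In III minus II 2 passed (3.55% of all genes did), both lower, and neither passed in any of the 9 fits without 1 array. Itga6, the alpha subunit of laminin receptors, fell by 2.17 (SE 0.24, limma adjusted p = 0.024), from 4.38 to 5.33 on the II arrays to 2.31 to 2.83 on the III arrays. Cd44, the hyaluronan receptor, fell by 1.41 (SE 0.16, limma adjusted p = 0.024), from 0.99 to 1.41 on II to -0.46 to -0.02 on III. In neither gene did the arrays of II and III overlap, and 13 of the 23 genes were higher and 10 lower on III.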

How the data were processed

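RNA of 9 arrays, 3 for each of 3 sorted populations, was analysed. The deposited table gives scaled intensity per probe on a linear scale for 35129 probes. Per the labels' protocols, spiked RNAs served for normalization. Scanner, software and further scaling were, as far as the sources used here go, not given. Code -9999 was treated as missing, and values at or below 0 were set to the array's smallest positive value (0.0002 to 0.0007) before log2 of the deposited values was taken. Precision is limited by the number of arrays.

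The brightest probe with 1 symbol (RefSeq names, assembly GRCr8) stood for a gene, which gave 12167 genes, 2 of them with too few values. Linear models were fitted with limma 3.58.1 in R 4.3.3 (lmFit, eBayes, two-sided): a population model, and a numeral model with population as a term. P-values were adjusted by Benjamini-Hochberg over 12165 genes, with 0.05 as threshold. The steps were tested on simulated data.

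Members and lists were chosen with earlier results of these data known. Given on every array were the enzymes, inhibitors and some named matrix genes, the 3 members per direction with the smallest p between populations, those called between numerals, and the 5 whose probes had the highest mean; other members were picked after their values were seen. Alternatives were quantile normalization, median centring, a floor at the 25th percentile, leaving out dim genes, averaging a gene's probes, fitting every probe, trend and robust variance, the numeral as a block (statmod 1.5.0), only the arrays compared, no population term, and leaving out each array.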

Additional observations from a re-analysis of the deposited data

How the results depend on the processing

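Between populations 0 members passed under every alternative listed at the start, but the count was not 0 when a replicate block (the numeral as a fixed term) was joined to trend and robust variance, a combination chosen after seeing the data. That fit called 2 members in O4 minus NG2 (Col1a1 and Emid1), 1 in O4 minus NG2/A2B5 (Plod1), 4 in NG2/A2B5 minus NG2 (Emid1, Lox, Mmp11 and Plod1) and 4 by the F test. Of all genes it called 1.02%, 0.00822%, 0.781% and 0.83% in the same order. Plod1 and Lox were chosen on contrasts with NG2/A2B5, so their calls add nothing. The replicate block alone, fixed or random, and the fixed block with a floor at the 25th percentile (also added later) called 0 in each. The numerals were not taken as pairs, since the labels do not tie a numeral to a culture. Deviations of arrays with the same numeral correlated at 0.04 to 0.14 over 9 pairs, against -0.11 to 0.01 for 18 others. In all 18 comparisons of an array with another population it correlated best with its own numeral, which is a hint from the data and not from the design. The deviations were taken from each population's mean and sum to 0 within it. The 18 other pairs are therefore not independent of the 9, nor are the 18 comparisons of each other.

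In III minus II the 7 calls became 0 with all probes and 0 with the mean of a gene's probes, where 0% of all probes and 1.12% of all genes passed. They became 14 with a floor at the 25th percentile, 14 without dim genes (59 members tested) and 18 with trend and robust variance. Of all genes 10.6%, 12.3% and 15.5% passed in these last 3 fits, which kept all 7. Quantile normalization and median centring kept the same 7, where 4.13% and 3.53% of all genes passed. The fit with no population term kept 5, without Col7a1 and Mmp11, and 4.04% of all genes passed in it. With the mean of its probes Loxl3 turned to -0.96 (limma adjusted p = 0.663). Its other probe was near background, and at the floor on NG2 array III. In II minus I the count of 1 became 0 with all probes and 0 with the mean of probes, 3 with the floor, 4 without dim genes and 8 with trend and robust variance. Of all genes 3.3%, 3.68% and 6.85% passed in the last 3 of these fits. With all probes 0% of probes passed, and with the mean of probes 0.0164% of all genes. For the F test over numerals the count of 1 became 0 and 0, 9, 11 and 18 in the same order, and 3 with no population term. The F test called 7.55% of all genes with the floor, 8.31% without dim genes, 15% with trend and robust variance and 1.99% with no population term. It called 0% of all probes, and 0.247% of all genes with the mean of probes. In III minus I trend and robust variance called 4 members and 2.56% of all genes. Leaving out each array in turn, the counts ranged from 0 to 0 in III minus II, II minus I and the F test over numerals. The cause of these shifts was not tested. Of 1550 single values recomputed, 1472 kept their sign and 78 turned, all but 1 of the latter for values that had not passed. With 3 arrays per population and 26 members near background, small changes could not be resolved.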

Other observations

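Several members above background that no contrast called still had the same order of III and II in every population. Matn4, a matrilin of the nervous system, read 2.03, 2.41 and 1.93 on the III arrays of O4, NG2/A2B5 and NG2, 0.47, 1.38 and -0.32 on the II arrays, and 0.78, 0.04 and 0.86 on the I arrays. III minus II was 1.61 (SE 0.46, limma adjusted p = 0.115) and III minus I was 1.56 (SE 0.46, limma adjusted p = 0.307). Col27a1, a fibril-forming collagen, read 3.43, 2.62 and 3.80 on the III arrays and 2.74, 1.76 and 2.07 on the II arrays, so III and II overlapped across populations. Col18a1, whose fragment is endostatin, read -2.0, -2.95 and -1.97 on III, -0.94, -1.42 and -1.37 on II, and -0.76, -1.60 and -1.66 on I, so the III arrays lay below all others. The III readings lay near the background limit, with that of NG2/A2B5 under it. Its III minus II difference of -1.07 became -0.82 with a floor at the 25th percentile.

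Genes measured by several probes did not always give 1 answer. Of 28 members with at least 2 fitted probes, 13 had at least 2 above background. In III minus II the probes of 8 of these had the same sign and those of 5 did not.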
